A study of Mus musculus with 4 samples.

Results

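The genes described here encode the signalling chains of the T cell receptor (TCR), the kinase and the adaptor that first act on it, and a set of receptors that tune its signal. They are Cd3d, Cd3e, Cd3g and Cd247 (the CD3 and zeta chains), Zap70 and Lat (kinase and adaptor), and Cd28, Cd5 and Cd6 (costimulatory and modulating receptors). Members were chosen by gene symbol, and 9 of 9 were found among the 26334 rows of the deposited table. Polyadenylated RNA was sequenced from mouse T helper 1 (Th1) cells, the interferon-gamma producing branch of CD4+ T cells, which had been grown for 5 days from naive CD4+ cells of the spleen. The cultures received interleukin-16 (IL-16, a cytokine that binds CD4) in 2 libraries or phosphate-buffered saline (PBS, the vehicle) in 2 libraries. Both groups shared the Th1 culture condition, and the strain, age and sex of the mice and the dose of IL-16 are not stated in the labels.

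The TCR itself has almost no intracellular part. It signals through the CD3 delta, epsilon and gamma chains and the zeta chain, whose tails carry paired tyrosine motifs (ITAMs). The kinase Lck phosphorylates these motifs, Zap70 docks on them and phosphorylates the membrane adaptor Lat, and Lat gathers the enzymes that open the calcium, Ras and protein kinase C branches. CD28 adds the costimulatory signal, CD5 dampens signalling, and CD6 is a related scavenger-receptor family protein that modulates it. The question asked of these genes was whether their transcript levels differed between Th1 cells grown with IL-16 and with PBS.

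The start regions of the receptor chain genes are shown because Cd247 had the smallest p among the 9 genes and Cd3d the opposite sign to its neighbours Cd3e and Cd3g. In the GENCODE annotation of GRCm38, Cd3g and Cd3d lie on opposite strands of chromosome 9 with 1355 bases between their starts, and the start of Cd3e lies 27841 bases from that of Cd3d. Each sequence runs 5′ to 3′ along the gene's own strand, with 250 bases before and 50 bases after the start, from RefSeq, build GRCm38.p6. The windows are chr1:165788431-165788730 (plus strand) for Cd247, chr9:44981536-44981835 (plus strand) for Cd3d, chr9:44980382-44980681 (minus strand) for Cd3g and chr9:45009562-45009861 (minus strand) for Cd3e. Capitals mark matches on either strand to GGAA (the ETS core), CAGNTG (an E-box), GGTGTG (a T-box core), TGTGGT (a RUNX motif) and TTCNNNGAA (the GAS element of STAT factors).
Cd247: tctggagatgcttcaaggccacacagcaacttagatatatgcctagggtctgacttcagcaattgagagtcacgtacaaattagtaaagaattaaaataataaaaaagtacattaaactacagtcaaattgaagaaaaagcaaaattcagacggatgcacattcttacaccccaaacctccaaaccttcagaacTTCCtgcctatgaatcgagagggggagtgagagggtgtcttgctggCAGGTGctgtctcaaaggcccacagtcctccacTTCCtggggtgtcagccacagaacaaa
Cd3d: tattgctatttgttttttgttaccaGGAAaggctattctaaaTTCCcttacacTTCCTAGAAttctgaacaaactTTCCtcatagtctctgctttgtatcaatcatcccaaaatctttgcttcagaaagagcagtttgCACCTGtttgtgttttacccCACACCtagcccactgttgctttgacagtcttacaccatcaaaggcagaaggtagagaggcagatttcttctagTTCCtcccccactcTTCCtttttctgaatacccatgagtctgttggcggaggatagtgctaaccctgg
Cd3g: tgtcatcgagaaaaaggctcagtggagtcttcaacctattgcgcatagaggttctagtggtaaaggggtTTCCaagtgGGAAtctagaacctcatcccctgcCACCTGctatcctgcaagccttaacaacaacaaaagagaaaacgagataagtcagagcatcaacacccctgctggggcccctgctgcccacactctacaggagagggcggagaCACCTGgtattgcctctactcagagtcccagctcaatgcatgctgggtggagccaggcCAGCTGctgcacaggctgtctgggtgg
Cd3e: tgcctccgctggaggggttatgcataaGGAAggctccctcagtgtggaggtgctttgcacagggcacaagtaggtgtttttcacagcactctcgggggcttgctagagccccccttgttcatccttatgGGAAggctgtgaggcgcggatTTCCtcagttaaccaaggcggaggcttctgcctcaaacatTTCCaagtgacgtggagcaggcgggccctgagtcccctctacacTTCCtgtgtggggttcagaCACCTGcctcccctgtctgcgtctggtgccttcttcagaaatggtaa
Cd3d held 6 ETS cores, 1 E-box, 1 T-box core and 1 GAS match, which overlaps an ETS core. Cd3e held 5 ETS cores and 1 E-box, Cd3g held 2 ETS cores and 3 E-boxes, and Cd247 held 2 ETS cores and 1 E-box. Of 32851 windows of the same length in the RefSeq table, 96% held the ETS core, 51.4% the E-box, 19% the T-box core, 16.8% the RUNX motif and 8.3% the GAS element. These matches describe letters in the windows and not binding.

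The source and cell type fields of the samples name peritoneal macrophages, but T cell transcripts were abundant and macrophage transcripts scarce in every library. The 12 T cell markers (the 9 genes, Cd4, Cd2 and Lck) summed to 2160 and 2280 FPKM with IL-16 and 1940 and 2030 FPKM with PBS (FPKM is a level per transcript length and per sequenced fragments). The 10 macrophage markers summed to 5.23 and 6.32 FPKM with IL-16 and 4.91 and 5.46 FPKM with PBS, with Fcgr1 and Marco at 0 in every library. Natural killer cells also express Cd247, Lat and Zap70. The sum of 9 natural killer markers was 37.3 and 38.6 FPKM with IL-16 and 42.0 and 36.6 FPKM with PBS, so the groups overlapped. Klrd1 (up to 17.7 FPKM), Klrk1 and Fcer1g had the highest levels among these markers. Ncr1, Klrb1c, Klra8 and Klra4 did not exceed 0.549 FPKM in any library. The 2 CD8 T cell markers summed to 9.99 and 8.63 FPKM with IL-16 and 8.75 and 8.23 FPKM with PBS. The 8 B cell markers summed to 3.07 and 3.38 FPKM with IL-16 and 4.34 and 5.20 FPKM with PBS. The sum of 6 dendritic cell markers did not exceed 2.18 FPKM in any library, with Clec9a and Siglech at 0. Of 5 gamma-delta T cell markers 1 was in the table, Sox13, at up to 0.163 FPKM. The part of other cells in the results was not tested, and in bulk RNA fewer cells of a type and less RNA per cell cannot be told apart. Summed FPKM per library lay between 373924 and 391153, and the sequencing depth is unknown. IL-16 replicate 2 stood farther from PBS than IL-16 replicate 1 (median absolute log2 difference over 11882 tested rows 0.220 and 0.214, against 0.150 and 0.145), while the IL-16 libraries differed by 0.142 and the PBS libraries by 0.0864. The labels do not say whether replicates were separate animals or cultures. The p-values thus reflect only library-to-library spread, part or all of which may be technical.

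Among the receptor chains, Cd247, Cd3e and Cd3g were higher and Cd3d lower in both IL-16 libraries than in both PBS libraries, but none passed the threshold over all tested rows. Cd247 encodes the zeta chain, which carries most of the receptor's ITAMs. It stood at 141 and 146 FPKM with IL-16 and at 100.0 and 101 FPKM with PBS. The libraries of each group lay close together and the groups were well apart. The ratio of means was 1.43-fold, from 144 ± 3.54 FPKM with IL-16 and 101 ± 0.796 FPKM with PBS (SD, n = 2 each). The log2 fold change was 0.51 (SE 0.07, 95% interval 0.34 to 0.68; limma adjusted p = 0.0686, unadjusted p = 0.000516), on the log2(FPKM + 1) scale used for all log2 fold changes.

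Cd3d, the delta chain gene, stood at 156 and 122 FPKM with IL-16 and at 194 and 197 FPKM with PBS. Both IL-16 values lay below both PBS values, with IL-16 replicate 2 the lower. Its log2 fold change was -0.50 (SE 0.13, 95% interval -0.82 to -0.18; limma adjusted p = 0.130), and it was -0.32 without IL-16 replicate 2. Cd3e, which encodes the epsilon chain that pairs with both delta and gamma, stood at 224 and 295 FPKM with IL-16 and at 195 and 203 FPKM with PBS. The groups did not overlap, but the gap between both IL-16 values was wider than that between IL-16 replicate 1 and either PBS value. Its log2 fold change was 0.37 (SE 0.14, 95% interval 0.01 to 0.72; limma adjusted p = 0.206), and it was 0.17 without IL-16 replicate 2. Cd3g, the gamma chain gene and the most abundant of the 9, stood at 402 and 441 FPKM with IL-16 and at 374 and 371 FPKM with PBS. Its groups did not overlap either, and its log2 fold change was 0.18 (95% interval -0.04 to 0.39; limma adjusted p = 0.280).

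**Figure D1:**
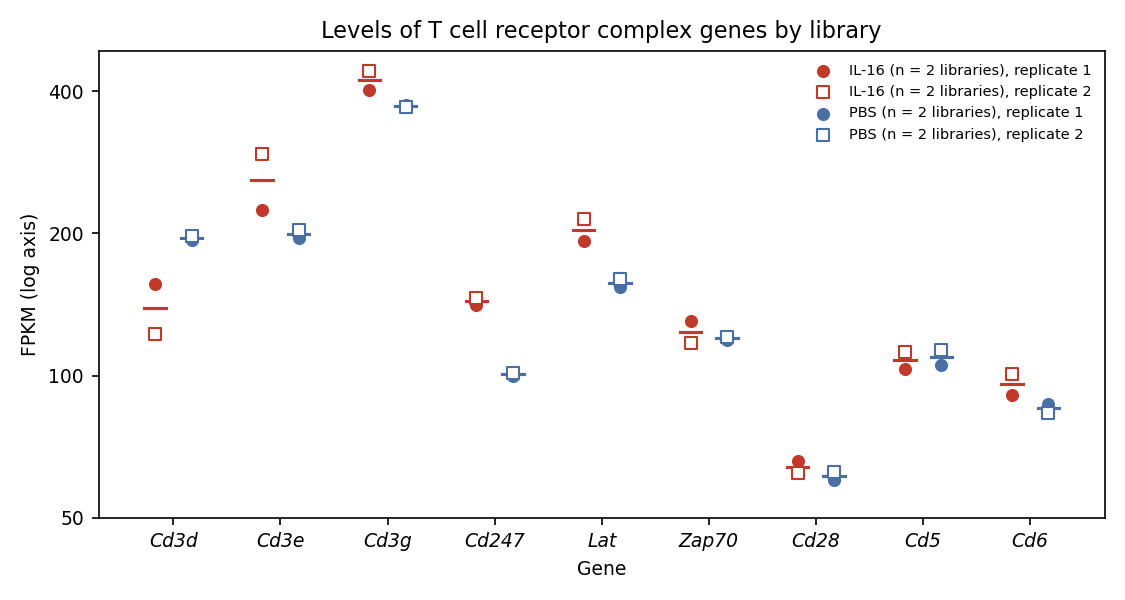
FPKM (log axis) of the 9 genes in each library, with IL-16 in red left of PBS in blue; circles are replicate 1, squares replicate 2 and bars the means of n = 2. Cd247 lies at 141 and 146 FPKM with IL-16 and at 100.0 and 101 FPKM with PBS, Cd3d lies lower with IL-16, and Zap70, Cd28 and Cd5 overlap.

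The shares of the receptor chain transcripts were also separate between the groups. Cd3d made up 16.9% and 12.2% of the summed FPKM of the 4 chain genes with IL-16 and 22.5% and 22.6% with PBS. Cd247 made up 15.3% and 14.6% with IL-16 and 11.6% in both PBS libraries. The share of Cd3e was 24.3% and 29.4% with IL-16 and 22.6% and 23.3% with PBS, and that of Cd3g 43.5% and 43.9% with IL-16 and 43.3% and 42.5% with PBS. Depth is unknown, so these shares have no counting interval. The ratio of Cd3d to Cd3e, transcripts whose products pair, was 0.696 and 0.414 with IL-16 and 0.993 and 0.970 with PBS. The ratio of Cd247 to the mean of Cd3d, Cd3e and Cd3g was 0.541 and 0.511 with IL-16 and 0.393 and 0.394 with PBS, a difference of 0.42 in the log2 of this FPKM ratio. These ratios are descriptions within each library of FPKM values, which no scaling between libraries changes, and were not tested.

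**Figure D2:**
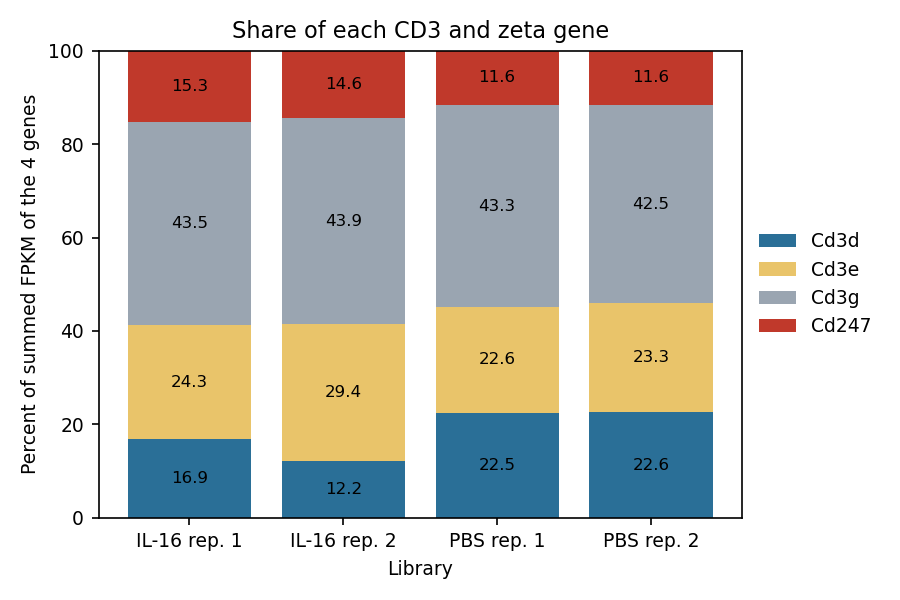
Percent of the summed FPKM of Cd3d, Cd3e, Cd3g and Cd247 held by each gene, 1 bar per library (IL-16 left, PBS right). The PBS bars are nearly alike, with Cd3d at 22.5% and 22.6%, while Cd3d is at 16.9% and 12.2% with IL-16 and Cd247 at 15.3% and 14.6%.

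Of the proximal kinase and adaptor, Lat was higher in both IL-16 libraries and Zap70 was not separated. Lat, the scaffold on which the signalling complex assembles, stood at 193 and 214 FPKM with IL-16 and at 154 and 160 FPKM with PBS. The groups did not overlap, and the log2 fold change was 0.37 (SE 0.08, 95% interval 0.16 to 0.58; limma adjusted p = 0.112). Zap70, the kinase that docks on phosphorylated ITAMs, stood at 131 and 117 FPKM with IL-16 and at 119 and 121 FPKM with PBS. The PBS values lay between the IL-16 values, and the log2 fold change was 0.04 (95% interval -0.16 to 0.25; limma adjusted p = 0.774), with a value of -0.04 without IL-16 replicate 1. Its ratio to Syk, the related kinase of B and myeloid cells, was 97.8 and 103 with IL-16 and 109 and 71.7 with PBS, with Syk at 1.33 and 1.14 FPKM with IL-16 and 1.09 and 1.69 FPKM with PBS.

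The costimulatory and modulating receptors differed by less than Cd247, Lat, Cd3d and Cd3e. Cd28 stood at 66.0 and 62.3 FPKM with IL-16 and at 60.1 and 62.4 FPKM with PBS, and the groups overlapped (log2 fold change 0.07, 95% interval -0.12 to 0.25; limma adjusted p = 0.602). The table also has 2 rows that carry a copy suffix of Cd28. The row Cd28-2 stood at 46.9 and 47.2 FPKM with IL-16 and 43.4 and 44.0 FPKM with PBS, and Cd28-3 at 44.6 and 44.4 FPKM with IL-16 and 41.3 and 42.0 FPKM with PBS. Reads may be split between these rows, so the level of Cd28 is uncertain. With them summed its log2 fold change was 0.09 (limma adjusted p = 0.472). Cd5 stood at 104 and 112 FPKM with IL-16 and at 105 and 113 FPKM with PBS, which overlapped (log2 fold change -0.02, 95% interval -0.23 to 0.19; limma adjusted p = 0.899). Its sign turned when the values were rescaled, corrected for length or taken without IL-16 replicate 1 or PBS replicate 2. Cd6 stood at 91.0 and 101 FPKM with IL-16 and at 87.0 and 83.3 FPKM with PBS, without overlap (log2 fold change 0.17, 95% interval -0.04 to 0.37; limma adjusted p = 0.279), and it ran from 0.094 to 0.24 when 1 library was left out. The intervals of Zap70, Cd28, Cd5, Cd6 and Cd3g include 0, and differences within them were not resolved.

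Counted together, 0 of the 9 genes passed an adjusted p of 0.05 in limma, against 0.219% of all 11882 tested rows (0.16% higher and 0.0589% lower with IL-16). By unadjusted p under 0.05, 3 genes were higher (Cd247, Lat and Cd3e) and 1 lower (Cd3d), where 23.4% of all tested rows met this mark, 9.59% higher and 13.9% lower. The groups did not overlap for 5 higher genes and 1 lower gene, against 58.9% of all tested rows, 24.1% higher and 34.8% lower. The median log2 fold change of the 9 genes was 0.17, with 7 above 0, and that of all tested rows was -0.04. All 9 genes passed the filter on low values, with mean levels from percentile 91.5 of the tested rows (Cd28) upward. With IL-16 replicate 1 left out, 5 of the 9 passed in limma, where 17.4% of all rows also did. These were Cd3d (log2 fold change -0.67, adjusted p = 0.0116), Cd3e (0.56, adjusted p = 0.0119), Cd247 (0.53, adjusted p = 0.0119), Lat (0.45, adjusted p = 0.0156) and Cd3g (0.24, adjusted p = 0.0386). With any other library left out, 0 of the 9 passed. Such a fit borrows the spread of the complete group for the single remaining library. Cd247 also passed in 2 fits with all 4 libraries. In the fit with copy rows summed, its limma adjusted p was 0.0375, where 1.11% of rows passed. Cd247 itself has no copy row, and its log2 fold change there stayed at 0.51. In the fit corrected for transcript length, its limma adjusted p was 0.0293, where 2.13% passed. The length correction was an alternative chosen after the data had been seen, and it also centred each library. The limma adjusted p of Cd247 was 0.179 in the fit without the low-value filter and 0.133 in that without limma's trend.

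**Figure D3:**
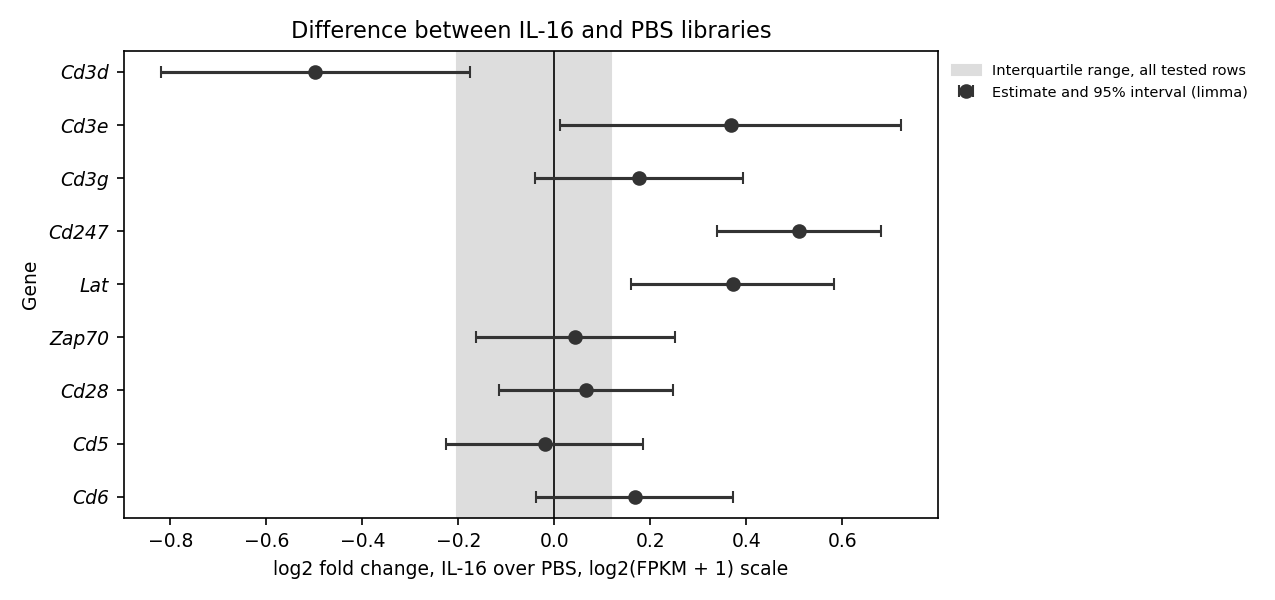
Log2 fold change of IL-16 over PBS for each of the 9 genes, with 95% intervals from limma; the grey band is the interquartile range of all tested rows, from -0.20 to 0.12. The estimates of Cd247 (0.51), Lat, Cd3e, Cd3g and Cd6 lie right of the band and that of Cd3d (-0.50) left of it; the intervals of Cd3e, Cd3g, Cd6 and Cd3d reach into the band.

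Differences moved with transcript length among the shortest transcripts. Rows of the shortest transcripts, 126 to 977 bases in GENCODE, had a median log2 fold change of -0.17. Set against the PBS mean, this median was -0.05 for IL-16 replicate 1 and -0.26 for replicate 2. The median was -0.11 for the length class of Cd3g and Lat, -0.06 for that of Cd3e, and -0.05 for those of Cd3d (1617 bases) and Cd247 (2957 bases). The median of all tested rows was -0.04. Set against the PBS mean, the class of Cd3d had medians of -0.001 for IL-16 replicate 1 and -0.08 for replicate 2. Over all tested rows these medians were -0.02 and -0.06. With the length correction given above, the log2 fold change was 0.27 for Cd3g, 0.47 for Lat, 0.42 for Cd3e and -0.45 for Cd3d. That correction also centred each library, and the median of all rows it fitted was -0.003. Scaling between libraries by median of ratios, without a length term, gave 0.22 for Cd3g, 0.42 for Lat, 0.41 for Cd3e and -0.45 for Cd3d. Length and scaling were thus not told apart, and the part of length in the results of single genes was not tested. The strand setting of the counting is not given in the sources used here. In GENCODE, Cd247 overlaps Pou2f1 on the opposite strand, among other genes on either strand that are not analysed here. Pou2f1 stood at 7.24 and 6.87 FPKM with IL-16 and 7.99 and 7.43 FPKM with PBS, and Cd3e overlaps Gm48719 on the opposite strand and Gm48720 on its own, which were not analysed here.

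By the rows without a suffix, the order of levels put Cd3g first, Cd3e second and Cd28 last in both groups. Cd247 was in place 4 of 9 with IL-16 and in place 7 with PBS, and Cd3d in place 5 with IL-16 and in place 3 with PBS. With IL-16, the ranges of Cd247 and Cd3d overlapped, as did those of Cd3d and Zap70, and with PBS those of Cd3e and Cd3d did. Other neighbours in each order did not overlap. With its 3 rows summed, Cd28 was in place 4 with IL-16 (156 FPKM) and place 5 with PBS (147 FPKM), which put Cd247 in places 5 and 8, so these places depend on how its copy rows are counted. By Euclidean distance between centred log2(FPKM + 1) profiles over the 4 libraries, the closest pair was Cd3g and Cd6 (0.0359), followed by Zap70 and Cd28 (0.0611). Cd247 was nearest to Lat (0.157), and Cd3d was the farthest from any other of the 9 genes, at 0.558 from Zap70. Across all tested rows the profiles nearest to Cd247 were Ppp1r12a (0.00986), a targeting subunit of myosin phosphatase, Myd88 (0.0159), the adaptor of Toll-like and interleukin-1 receptors, and Gvin1 (0.0267), a giant interferon-induced GTPase. With 4 libraries such closeness is a description.

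In the wider pathway, 0 of 98 tested genes that are not among the 9 passed in limma at an adjusted p of 0.05. At an unadjusted p under 0.05, 15 of these genes were higher and 16 lower (31.6% in all, against 23.4% of all tested rows). The rows set beside them were not matched for level. Their median log2 fold change was -0.03, close to that of all tested rows. Constant region genes of the TCR were listed with the receptor chains but had no row under their symbols. Of the 9 genes of that list, 4 were in the table, the CD3 and zeta genes. The levels of the TCR chains themselves could therefore not be examined. Among 14 coreceptors and costimulatory receptors (Cd28, Cd5 and Cd6 included) 0 passed, 3 were higher and 2 lower by unadjusted p under 0.05, and the median was 0.02. Cd4, the coreceptor that brings Lck to the receptor, stood at 269 and 302 FPKM with IL-16 and 243 and 262 FPKM with PBS (log2 fold change 0.18, adjusted p = 0.307). Cd2, an adhesion receptor that couples to Lck and Fyn, stood at 189 and 204 FPKM with IL-16 and 126 and 152 FPKM with PBS (log2 fold change 0.50, adjusted p = 0.112). Tnfrsf4 (OX40) had a log2 fold change of 0.34 (adjusted p = 0.131). Cd226 (DNAM-1), at 7.97 and 7.94 FPKM with IL-16 and 11.9 and 10.6 FPKM with PBS, had -0.45 (adjusted p = 0.109). Cd8a was at 2.13 and 2.26 FPKM with IL-16 and 1.99 FPKM in both PBS libraries.

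The 12 tyrosine kinases (Zap70 included) had a median log2 fold change of -0.02, and 0 passed, with 2 higher and 1 lower by unadjusted p. By unadjusted p under 0.05 in limma, 9.59% of all tested rows were higher and 13.9% lower. Fyn, a Src family kinase, stood at 90.7 and 93.1 FPKM with IL-16 and 73.3 and 69.7 FPKM with PBS (log2 fold change 0.36, adjusted p = 0.105). Lck stood at 189 and 167 FPKM with IL-16 and 184 and 205 FPKM with PBS, which overlapped (log2 fold change -0.13, adjusted p = 0.458). Abl1 and Abl2, related cytoplasmic kinases, differed by 0.22 and -0.38 on the log2 scale (adjusted p = 0.189 and 0.159). The 19 tested adaptors of 20 (Lat included) had a median of 0.02, and 0 passed, with 3 higher and 2 lower by unadjusted p. The same shares of all tested rows stand beside these counts. Lcp2 (SLP-76), which joins Lat in the signalling complex, stood at 77.5 and 89.7 FPKM with IL-16 and 69.8 and 72.6 FPKM with PBS (log2 fold change 0.23, adjusted p = 0.222). Sh3bp2 had a log2 fold change of 0.41, and the lowly expressed Tespa1 and Trat1 had -0.43 each (adjusted p = 0.121, 0.120 and 0.159).

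The genes listed as brakes were 29 phosphatases, inhibitory adaptors, ubiquitin ligases and diacylglycerol kinases, of which not all only dampen the signal. Their median log2 fold change was -0.07, and 0 passed, with 3 higher and 3 lower by unadjusted p. By this mark 9.59% of all tested rows were higher and 13.9% lower. Ptprc (CD45), the phosphatase that keeps Lck poised, stood at 384 and 372 FPKM with IL-16 and 420 and 412 FPKM with PBS (log2 fold change -0.14, adjusted p = 0.326). Ndfip1, which activates Itch-type ubiquitin ligases, stood at 180 and 147 FPKM with IL-16 and 247 and 240 FPKM with PBS (log2 fold change -0.58, adjusted p = 0.105). Rasa1, a Ras inactivator, had -0.28, and Lax1, an inhibitory relative of Lat, had 0.43 (adjusted p = 0.133 and 0.179). The 29 genes of the calcium, NFAT, Ras and protein kinase C branches had a median of -0.03, and 0 passed. By unadjusted p, 5 were higher and 8 lower (44.8% in all, against 23.4% of all tested rows, not matched for level). Nfatc2, a calcium-driven transcription factor, stood at 72.6 and 77.0 FPKM with IL-16 and 52.7 and 53.7 FPKM with PBS (log2 fold change 0.48, adjusted p = 0.0757). Stim1, the calcium sensor of the endoplasmic reticulum, had -0.39 (adjusted p = 0.105).

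**Figure D4:**
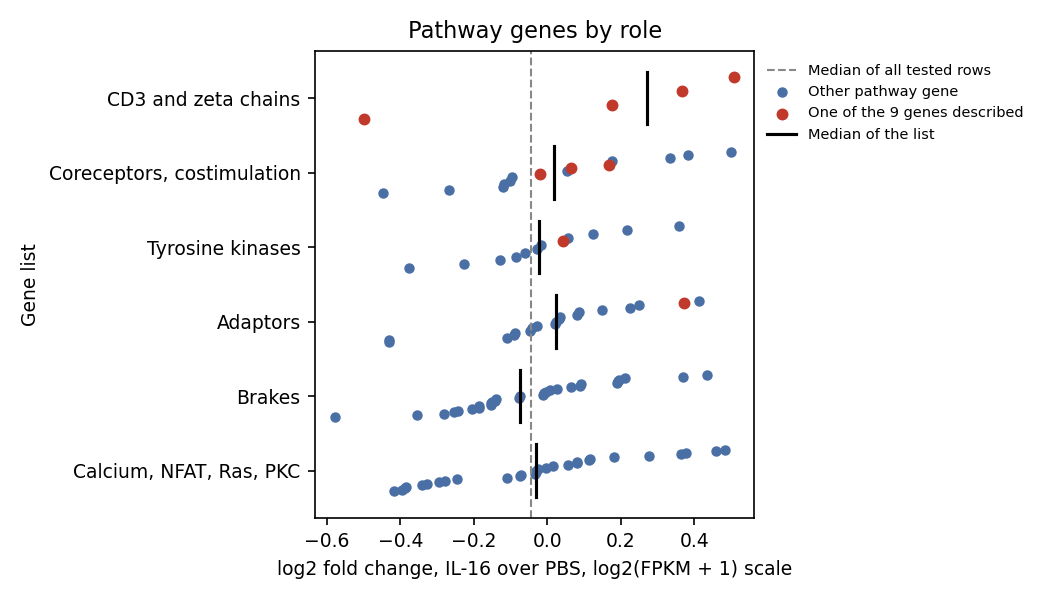
Log2 fold change of IL-16 over PBS for each tested gene of 6 lists by role; red points are among the 9 genes, black bars are list medians and the dashed line is the median of all tested rows (-0.04). The medians of the lists outside the receptor chains lie between -0.07 and 0.02, while the 4 chain genes span -0.50 to 0.51.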

How the data were processed

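The deposited table has 1 value per row and library. The authors' values were read as FPKM, since they are not whole numbers and their totals differ, and the deposited header names no unit. Per the submitters' processing notes, fastp, HISAT2 and featureCounts were used with GRCm39; no versions are listed, and which tool made the values is not given. Steps of whole reads were not found (at most 1.49% of ratios of rows under 0.2 FPKM fell in any window of 0.5%), so depth is unknown. Groups came from the sample titles. Values were taken as log2(FPKM + 1), and rows of at least 1 FPKM in at least 2 libraries were compared between groups by limma 3.58.1 (R 4.3.3), trend option on, no covariate. Tests were two-sided, with Benjamini-Hochberg adjustment over all 11882 tested rows and a threshold of 0.05. The fit was tested on simulated data. Fold changes on this scale understate those of low genes. Alternatives changed the pseudocount, filter, scaling, variance model, libraries, replicate block, copy rows and transcript length. Of the tested rows 86.6% had a length by symbol in GENCODE vM21 (GRCm38). Promoter windows were found for 7 of the 9 genes. Named pathway genes are a fixed set (Cd4, Lck, Fyn, Lcp2, Syk, Ptprc, Cd8a), any that passed, and per list the 3 non-members with the smallest p; some genes that this rule names are not reported here. The members and lists were chosen with earlier results of these data known.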

Additional observations from a re-analysis of the deposited data

How the results depend on the processing

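The count of tested rows called (26) was 0 without the low-value filter and without limma's trend, 40 in TPM, 53 when scaled by median of ratios, 126 with copy rows summed, 219 with the transcript length correction, and 9 to 2065 when 1 library was left out. Of the 9 genes, 0 to 5 passed when 1 library was left out. With copy rows summed the count was 1 (Cd247, log2 fold change 0.51), and with the length correction 1 (Cd247, 0.55); in the other fits it was 0. Per list, leaving out 1 library gave 0 to 4 calls for receptor chains, coreceptors and adaptors each, 0 to 1 for kinases, 0 to 3 for brakes and 0 to 14 for the downstream branches. Each upper end came from the fit without IL-16 replicate 1, which also called 2065 of all 11882 tested rows (share given above). The tested genes numbered 4 receptor chains, 14 coreceptors, 19 adaptors, 12 kinases, 29 brakes and 29 in the branches. Whether any list differed from all rows in that fit was not tested. Copy rows summed gave 1 call in the receptor chains (Cd247) and 1 in the branches (Nfatc2). The length correction gave 1 in the receptor chains (Cd247), 1 in the brakes (Ndfip1) and 2 in the branches (Nfatc2 among them). The cause was not tested.

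Leaving out each library gave log2 fold changes of -0.67 to -0.32 for Cd3d, 0.17 to 0.56 for Cd3e, 0.11 to 0.24 for Cd3g, 0.48 to 0.53 for Cd247, 0.30 to 0.45 for Lat, -0.035 to 0.12 for Zap70, 0.025 to 0.11 for Cd28, -0.078 to 0.038 for Cd5 and 0.094 to 0.24 for Cd6. Over all 15 fits, the reported one included, the adjusted p of Cd247 ran from 0.0119 to 0.434 and that of Cd3d from 0.0116 to 0.484. Cd5 turned to 0.0078 in TPM, 0.027 when scaled by median of ratios and 0.017 with the length correction. The difference in the log2 FPKM ratio of Cd247 to the CD3 genes was 1.014 against the lowest of them. The lowest was Cd3d in every library, so this ratio also includes the lower Cd3d values with IL-16. Samples with the same number did not deviate together (r = 0.0067 across rows), and with the replicate block 31 rows passed, none of them among the 9 genes (Cd247 adjusted p = 0.0861). Depth is unknown, so its limits could not be set.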
